A study of Homo sapiens with 3 samples.

Results

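The Kruppel-like factors (KLFs) described here are 10 genes, KLF2, KLF3, KLF4, KLF5, KLF6, KLF9, KLF10, KLF11, KLF13 and KLF16, taken by symbol from a table of 48162 gene entries. Each symbol occurred in 1 entry. Read counts came from RNA sequencing of the established human line HCT116, derived from a colon cancer, with 1 library per group and therefore no replicates. The untreated group received neither agent. The CDK4 siRNA group had received a small interfering RNA (siRNA) against the cell cycle kinase gene CDK4 by transfection, also for 24 hours, and the palbociclib group was kept for 24 hours in 1 µM palbociclib, an inhibitor of the kinases CDK4 and CDK6. No library of solvent-treated cells or of cells given a control siRNA was analysed here, so effects of solvent or of transfection itself cannot be told apart from those of drug or target.

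KLF proteins are transcription factors that bind GC-rich and CACCC-type DNA through zinc fingers at their carboxyl end, and they differ in the cofactors that their amino-terminal parts recruit. KLF2, KLF4, KLF5 and KLF6 belong to a branch known mainly for activation, KLF3 recruits the corepressor CtBP, and KLF9, KLF10, KLF11, KLF13 and KLF16 recruit the corepressor SIN3A. In the gut, KLF5 is found in dividing crypt cells and KLF4 in differentiating cells of the upper crypt and surface. Several family genes, among them KLF2, KLF4, KLF6 and KLF10, are known as early response genes whose mRNA changes quickly after a stimulus.

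All 10 KLF mRNAs were higher in the palbociclib library than in the untreated one, and 5 of them, KLF6, KLF5, KLF9, KLF11 and KLF4, were more than 2-fold higher. KLF6 stood at 6.43 times and KLF5 at 5.16 times the untreated level. In the CDK4 siRNA library no member passed the 2-fold rule, where 1.10% of all genes passed it as higher and 0.118% as lower. KLF2 came nearest to it there, at 1.84 times the untreated level, and KLF2 alone was lower with palbociclib than with the siRNA.

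The promoter windows of the members that the results turn on are shown first, because KLF2 was the furthest member with the siRNA and KLF6, KLF5, KLF9 and KLF11 were the 4 furthest with palbociclib. RefSeq windows from 250 bases before to 50 bases after an annotated start (build GRCh38.p14) matched 8 of the 10 members, in 10 windows, since KLF5 and KLF11 have 2 starts each, of which the second is shown for its match to the motif named here. KLF3 and KLF10 had no matched window. Capitals mark matches to a MEF2 site in KLF2, to the CCAAT box in KLF5, KLF6 and KLF9 (CCAAT on either strand, so ATTGG where the match lies on the other strand), and to the full cyclic AMP response element TGACGTCA in KLF11. The reads were assigned on hg19, and these coordinates are those of the RefSeq table. The sequences read 5′ to 3′ on the gene's strand.
KLF2, chr19:16324576-16324875 (+ strand): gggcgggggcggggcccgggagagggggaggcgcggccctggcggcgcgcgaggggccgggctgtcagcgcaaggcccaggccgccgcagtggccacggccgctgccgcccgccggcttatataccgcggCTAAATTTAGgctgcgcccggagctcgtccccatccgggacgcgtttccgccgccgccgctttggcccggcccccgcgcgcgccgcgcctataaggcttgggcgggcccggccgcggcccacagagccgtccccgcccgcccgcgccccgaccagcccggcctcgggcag
KLF5, second start, chr13:73058755-73059054 (+ strand): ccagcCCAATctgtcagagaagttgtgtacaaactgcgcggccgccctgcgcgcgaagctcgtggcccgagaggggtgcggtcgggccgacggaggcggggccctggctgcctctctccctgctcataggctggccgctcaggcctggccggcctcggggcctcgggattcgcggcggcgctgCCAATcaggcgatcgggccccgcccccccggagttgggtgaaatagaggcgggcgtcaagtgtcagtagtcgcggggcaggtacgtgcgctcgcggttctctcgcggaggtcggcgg
KLF6, chr10:3785160-3785459 (- strand): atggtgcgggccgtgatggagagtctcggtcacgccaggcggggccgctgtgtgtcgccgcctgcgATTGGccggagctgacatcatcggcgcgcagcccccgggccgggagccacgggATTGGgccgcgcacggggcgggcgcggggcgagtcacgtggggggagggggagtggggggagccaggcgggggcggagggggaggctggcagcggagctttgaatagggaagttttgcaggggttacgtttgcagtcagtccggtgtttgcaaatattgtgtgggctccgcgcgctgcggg
KLF9, chr9:70414608-70414907 (- strand): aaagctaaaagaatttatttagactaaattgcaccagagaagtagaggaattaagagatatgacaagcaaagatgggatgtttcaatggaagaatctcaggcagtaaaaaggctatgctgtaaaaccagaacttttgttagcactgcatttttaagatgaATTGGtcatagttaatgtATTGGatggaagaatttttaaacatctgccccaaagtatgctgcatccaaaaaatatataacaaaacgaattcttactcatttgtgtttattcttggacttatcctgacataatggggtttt
KLF11, second start, chr2:10043971-10044270 (+ strand): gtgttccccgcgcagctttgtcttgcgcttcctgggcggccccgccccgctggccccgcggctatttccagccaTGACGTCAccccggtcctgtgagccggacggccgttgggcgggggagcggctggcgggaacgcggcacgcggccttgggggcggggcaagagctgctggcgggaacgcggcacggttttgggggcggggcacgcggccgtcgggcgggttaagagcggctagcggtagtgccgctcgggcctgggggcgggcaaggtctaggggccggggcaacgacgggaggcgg

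The KLF2 window had the 1 MEF2 match, CTAAATTTAG, at bases -120 to -111 from the start, and 1.86% of all 35116 promoter windows held such a match. CCAAT occurred in 4 of the 10 windows (those of KLF5, KLF6, KLF9 and KLF13), against 34.6% of all windows. The full TGACGTCA element was in the second KLF11 window alone, at -176 to -169, against 1.85% of all windows. The family's own CACCC motif was in 4 of the 10 windows, against 59.9%, and the GC box GGGCGG, which contains no CACCC, was in 8 of 10, against 45.0%. The AP-1 motif TGANTCA, searched with only C or G at N, the ETS core CCGGAA and the CArG box bound by SRF did not occur in these windows. Nor did the NF-kB and E2F sites. In that order, 4.95%, 17.2%, 1.29%, 9.08% and 3.31% of all windows hold them. Both strands were searched. A match describes the letters and is not evidence of binding.

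Library totals were 20313597 (untreated), 18349355 (CDK4 siRNA) and 18020870 (palbociclib) reads, and values listed for all libraries below keep that order. The siRNA target was lower in its library: CDK4 had 2689, 1059 and 1426 reads, a normalised ratio of 0.42 (0.391 to 0.451) with siRNA. Levels are given as CPM, reads per 1000000 reads of a library total scaled by TMM factors, and brackets after a value hold its 95% interval for counting error only. Of 8 colon epithelial markers, 6 had reads in every library, EPCAM, CDH1, KRT8, KRT18, KRT19 and CDX2, with a summed level between 4572 and 5176 CPM, while VIL1 and CDH17 had at most 5 reads. That sum covers opposite shifts with palbociclib. KRT8, KRT18 and CDH1 were at 0.556, 0.712 and 0.789 times the untreated level, and KRT19, EPCAM and CDX2 at 1.68, 1.26 and 1.34 times. The summed markers of blood cells were at 0.429 to 3.63 CPM with PTPRC and CD3E at 0 reads throughout, those of endothelial cells at 0.429 to 0.801 with CDH5 at 0, and those of fibroblasts at 8.99 to 22.3. The highest blood value came from CD14, with 0, 3 and 52 reads. COL1A1 made up most of the fibroblast sum, at 14.8, 22 and 8.68 CPM. The RNA make-up of the palbociclib library also differed: mRNAs of the mitochondrial genome took 4.02%, 3.85% and 6.53% of the reads, and MALAT1, a long RNA of the nucleus, 0.00667%, 0.012% and 0.0749%. The part of these differences in the KLF ratios was not tested.

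In untreated cells the KLF mRNAs differed widely in level. Per gene length, as the deposited FPKM (reads scaled by gene length and library total), KLF16 was highest at 62.7 FPKM (60.7 to 64.8), followed by KLF2 at 39.3 (37.4 to 41.2), KLF10 at 25.3 (24.2 to 26.5) and KLF4 at 16.5 (15.4 to 17.5). KLF5 at 13.6 (12.7 to 14.4) and KLF6 at 13.1 (12.4 to 13.9) came next, and their intervals overlapped. KLF13 followed at 9.99, KLF3 at 6.3, KLF11 at 2.06 and KLF9 at 0.779 FPKM (0.619 to 0.966), and none of these neighbours' intervals overlapped. The 10 genes thus made up 98.6% of the summed FPKM of 17 KLF genes in untreated cells.

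The order of levels differed with treatment. In the siRNA library KLF2 at 74.9 FPKM (72.2 to 77.8) and KLF16 at 73 (70.7 to 75.3) shared the top with overlapping intervals, and KLF4, KLF6 and KLF5 overlapped each with the next. In the palbociclib library KLF16 led at 90.8 FPKM, followed by KLF6 at 73.5, KLF5 at 61 and KLF2 at 55.6, and no neighbouring intervals overlapped. KLF6 moved from 6.83% of the summed KLF FPKM in untreated to 18.7% in palbociclib-treated cells and KLF5 from 7.06% to 15.5%, while KLF16 went from 32.6% to 23.1%. KLF2 took 20.4% in untreated, 29.9% in siRNA and 14.2% in palbociclib-treated cells. The summed CPM of the 10 members was 601, 722 and 1514 from untreated through siRNA to palbociclib.

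**Figure D1:**
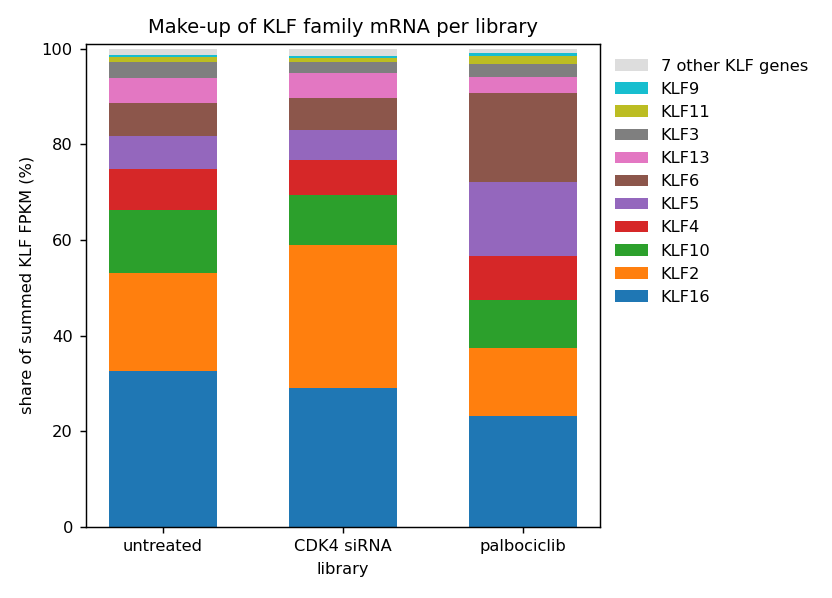
Stacked bars show the share (%) of the summed FPKM of 17 KLF genes that each of the 10 members, and the other 7 genes together, took in each library. KLF6 and KLF5 take 18.7% and 15.5% of the palbociclib bar against 6.83% and 7.06% of the untreated bar.

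**Figure D2:**
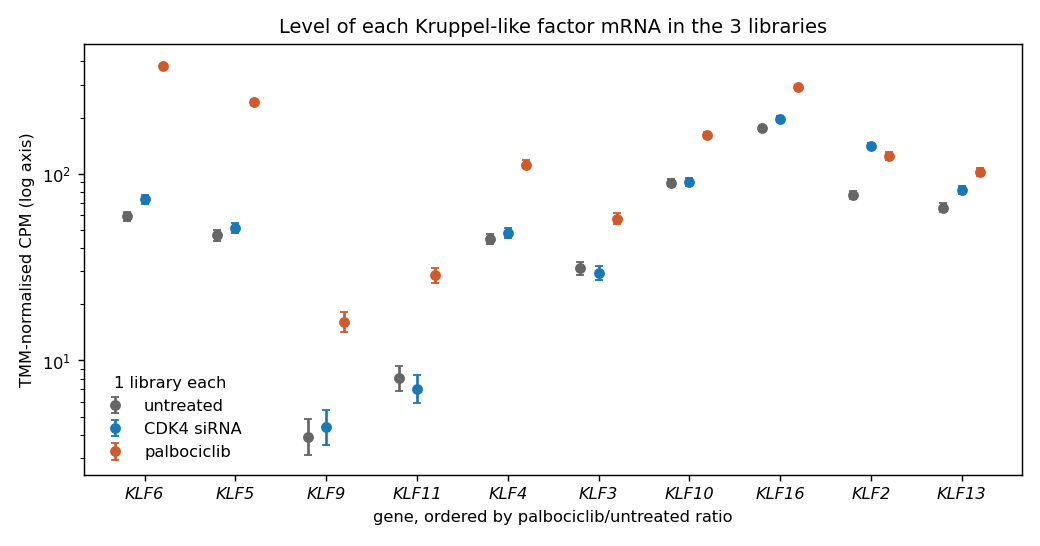
Points are the normalised level (CPM, log axis) of each member in the untreated, CDK4 siRNA and palbociclib libraries, 1 library each, and bars are 95% Poisson intervals for counting error. The palbociclib point is the highest for every gene except KLF2, where the siRNA point is highest.

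Of the 4 members of the activator-type branch, 3 were called higher in the palbociclib library, against 10% of all genes. The rule used for calls was a log2 ratio of at least 1, with a prior count of 2. The counting interval also had to exclude 1. KLF6, an early response gene expressed in many tissues, had 1241 untreated, 1436 siRNA and 6164 palbociclib reads, which scale to 59.1 (55.8 to 62.5), 72.9 (69.2 to 76.8) and 379.7 CPM (370.3 to 389). The palbociclib library alone was far above the others, at a ratio of 6.43 (6.04 to 6.83). In RNA from a whole culture, more expressing cells and more RNA per cell cannot be told apart. KLF6 ranked 107 from the top among 12694 genes compared, those with a mean of at least 1 CPM.

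KLF5, a factor of dividing intestinal crypt cells, had 982, 1011 and 3916 reads, or 46.8, 51.3 and 241 CPM. Untreated and siRNA cells were close together and the palbociclib library stood above both, at 5.16 times the untreated level (4.81 to 5.54). KLF4, linked to growth arrest and differentiation in the gut, had 940, 946 and 1825 reads, or 44.8, 48 and 112 CPM. The palbociclib ratio of KLF4 was 2.51 (2.32 to 2.72), smaller than those of KLF5 and KLF6, and its interval did not overlap theirs.

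KLF2, known from quiescent endothelial cells and lymphocytes, had 1610, 2775 and 2022 reads. Its levels were 76.7 (73 to 80.5), 141 (136 to 146) and 125 CPM (119 to 130.1). KLF2 was higher in both treated libraries than in the untreated one, and the siRNA library was the highest of the 3. The palbociclib ratio was 1.62 (1.52 to 1.74), below the 2-fold rule.

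KLF3, which recruits CtBP, had 655, 580 and 933 reads, or 31.2 (28.8 to 33.7), 29.4 (27.1 to 31.9) and 57.5 CPM (53.8 to 61.3). The untreated and siRNA values overlapped and the palbociclib library was above them, at a ratio of 1.84 (1.67 to 2.04) that did not reach the rule. An antisense gene, KLF3-AS1, overlaps KLF3, and 2 antisense genes, AC012615.3 and AC012615.4, overlap KLF16; these were not analysed here. Whether the counting used strand is not given in the sources used here, so their reads may not have been told apart from those of KLF3 and KLF16.

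Members that recruit SIN3A fell into a strongly and a weakly differing set in the palbociclib library. Of these 5, 2 were past the rule as higher, against 10% of all genes. A difference between the branches was not tested. KLF9, an early response gene of steroid and thyroid hormones, had few reads, namely 82, 87 and 262, or 3.9, 4.42 and 16.1 CPM. Its palbociclib ratio of 4.13 had a wide interval of 3.21 to 5.36, which overlapped those of KLF5 and KLF11. KLF11, a factor induced by TGF-beta, had 169, 139 and 465 reads, or 8.05, 7.06 and 28.6 CPM, and a palbociclib ratio of 3.56 (2.98 to 4.27). Both had the lowest untreated levels of the 10, and both stood highest in the palbociclib library.

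KLF10, the other TGF-beta-induced member of this branch, had 1883, 1774 and 2618 reads, or 89.7, 90.1 and 161 CPM. The untreated and siRNA values overlapped, and palbociclib was at 1.8 times the untreated level (1.69 to 1.91). KLF16 had 3678, 3869 and 4727 reads, or 175, 196 and 291 CPM, a palbociclib ratio of 1.66 (1.59 to 1.74). KLF13, known from T cell and heart development, had 1385, 1614 and 1651 reads, or 65.9, 81.9 and 102 CPM, and the lowest palbociclib ratio of the 10 at 1.54 (1.43 to 1.66). KLF10, KLF13 and KLF16 were thus above the untreated library by less than 2-fold, outside counting error.

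**Figure D3:**
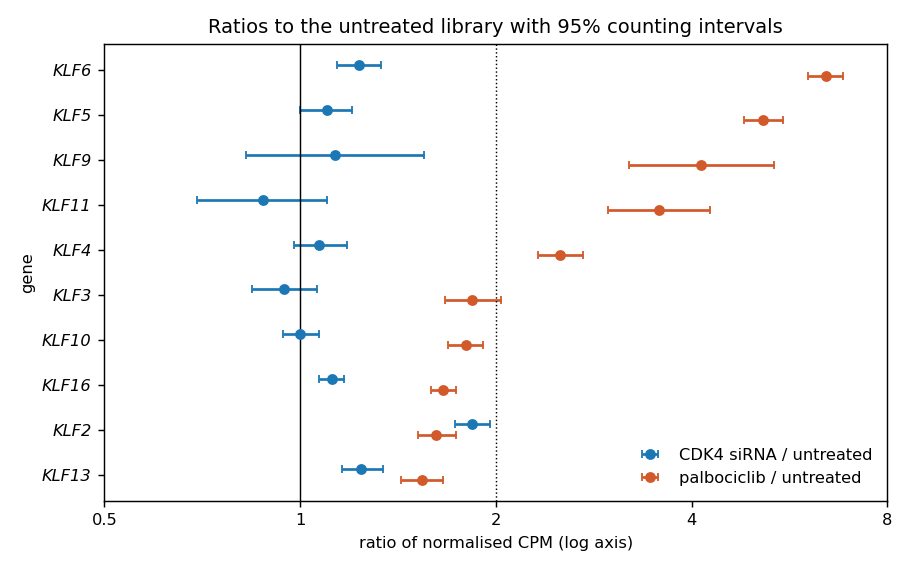
Points are ratios of normalised CPM (log axis) of the CDK4 siRNA and the palbociclib library to the untreated library for each member, with 95% counting intervals; the solid line marks 1 and the dotted line 2. All 10 palbociclib intervals lie above 1, with KLF6 furthest at 6.43, whereas the siRNA points lie between 0.877 for KLF11 and 1.84 for KLF2.

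Against the whole palbociclib comparison, 5 of 10 members were called higher where 10% of the 12694 genes were, and none lower where 13.6% were. All 10 counting intervals lay above 1, against 36.0% of genes. The median log2 ratio was 1.10 for the members and -0.07 for all genes. The members were chosen with earlier results of these data known, so these counts describe the 10 genes and are no test. Scaling by library totals in place of TMM moved the median of all genes to -0.27 and that of the members to 0.9, with the same 5 members past the rule and all 10 intervals above 1.

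**Figure D4:**
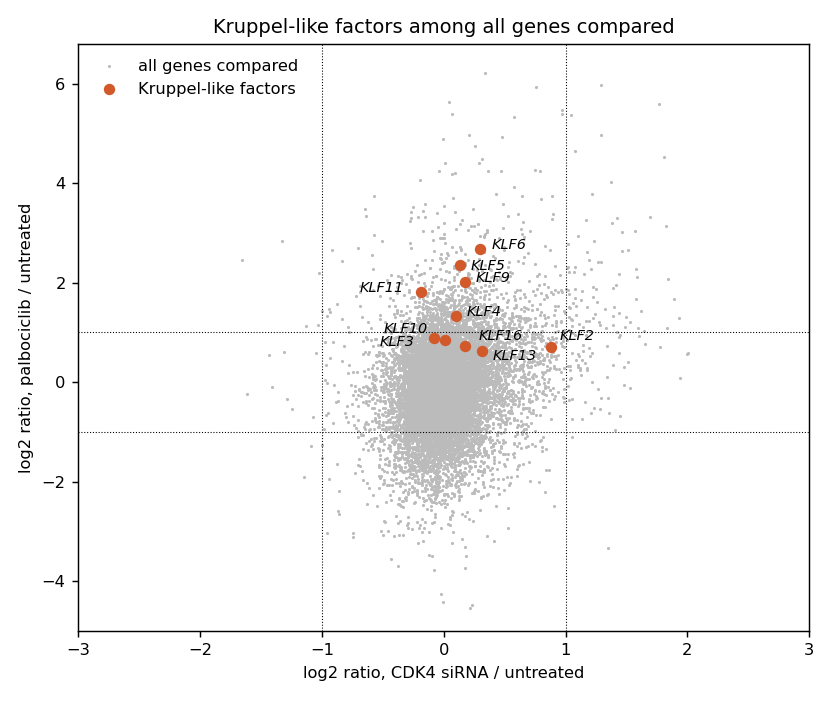
Each grey point is 1 of 12694 genes, with the log2 ratio of CDK4 siRNA to untreated on the x axis and of palbociclib to untreated on the y axis, and the 10 KLF genes are marked and named; dotted lines mark log2 ratios of 1 and -1. Both axes share the untreated library; the KLF genes lie between 0.62 and 2.68 on the y axis and between -0.19 and 0.88 on the x axis.

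With CDK4 siRNA, no member passed the rule against untreated cells in either direction, where 1.10% of all genes were called higher and 0.118% lower. KLF2 was furthest at a ratio of 1.84 (1.73 to 1.96), rank 214 from the top of 12694 genes. KLF13 at 1.24 (1.16 to 1.34), KLF6 at 1.23 (1.14 to 1.33) and KLF16 at 1.12 (1.07 to 1.17), whose direction turned with the trend on GC content and length subtracted, also had intervals above 1, and KLF5 at 1.1 had a lower bound only just above 1. These were 5 of 10 members, against 17.7% of genes with an interval above 1. The member count was 4 with DESeq2 size factors, 4 with the trend on GC content and length subtracted, and 6 with library totals. The intervals of KLF3 at 0.944, KLF4 at 1.07, KLF9 at 1.13, KLF10 at 1 and KLF11 at 0.877 (0.695 to 1.1) included 1. The median log2 ratio of the members was 0.15, against -0.02 for all genes.

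Base composition moved with the siRNA ratios. Across 11507 genes with a known transcript, log2 ratios of siRNA to untreated had a Spearman correlation of 0.332 with GC content, against 0.0572 for palbociclib, and genes are not independent replicates. The transcripts of KLF16 at 67.8% GC, KLF2 at 65.2% and KLF13 at 57.6% were the richest of the 10, where the median gene had 49.2%. With the trend on GC content and length subtracted, KLF2 stood at a log2 ratio of 0.7 in place of 0.88, KLF13 at 0.15 in place of 0.31, and KLF16 at -0.1 in place of 0.17. Processed pseudogenes of KLF2 and KLF4 exist elsewhere in the genome and were not analysed here, so a share of the reads of KLF2 and KLF4 is uncertain.

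The palbociclib and siRNA libraries were also compared directly. The same 5 genes, KLF6 at 5.21 (4.92 to 5.52), KLF5 at 4.7 (4.38 to 5.04), KLF11 at 4.06 (3.35 to 4.94), KLF9 at 3.65 (2.86 to 4.71) and KLF4 at 2.34 (2.16 to 2.53), were called higher with palbociclib, against 8.75% of all genes, and none was called lower, against 13.8%. KLF3 lay just under the rule at 1.95 (1.76 to 2.17). KLF10 at 1.79, KLF16 at 1.48 and KLF13 at 1.24 also had intervals above 1, which made 9 of 10 members against 35.7% of genes. KLF2 was the 1 member with an interval below 1, against 41.4% of genes, at 0.884 (0.835 to 0.937). KLF4 dropped under the rule with library totals, at a log2 ratio of 0.97, and KLF3 passed it with DESeq2 size factors, at 1.02, and with upper quartile factors, at 1.07.

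The remaining family genes had low levels. Of the 7 other family genes in the table, KLF1 had no reads, which allows up to 0.143 CPM in the untreated library by a floor of 3 counts, KLF17 had at most 1 read and KLF8 at most 12. Among the other 4, KLF15, a metabolic regulator induced by glucocorticoids, was called higher with palbociclib, from 30 untreated and 23 siRNA reads to 55, at a ratio of 2.37 (1.49 to 3.83). KLF7 was the lowest at 0.998 (0.75 to 1.32), and KLF12 at 1.32 (0.98 to 1.78) and KLF14 at 1.04 (0.559 to 1.93) also had intervals that include 1. KLF14 was at 1.89 (1.14 to 3.18) with the siRNA, from 26 to 46 reads, and its log2 ratio of 0.86 did not reach the rule. Over the 14 family genes compared, 6 were higher and none lower with palbociclib, against 10% and 13.6% of all genes. Of these 6, 5 are the members already counted and KLF15 is the other. The call of KLF15 was not checked under other scalings.

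SP factors, the nearest relatives of the KLF genes, bind the same GC-rich sites. Of 9 listed, 7 were compared with a median log2 ratio of -0.1 for palbociclib, and 2 were called lower and none higher, against 13.6% and 10% of all genes. SP8 had 33 untreated, 25 siRNA and 5 palbociclib reads, a ratio of 0.196 (0.0597 to 0.505), and SP5, a Wnt target, was at 0.464 (0.336 to 0.634). SP2 was the highest at 1.84 (1.68 to 2.02). The broadly expressed SP1 was at 1.01 (0.955 to 1.07) with palbociclib, and at 0.807 (0.762 to 0.855) with the siRNA. None of the 7 passed the rule with siRNA, where 1.10% of all genes were called higher and 0.118% lower.

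Cofactors that KLF proteins recruit were spread around the untreated level in the palbociclib library, with 2 higher and 2 lower of 13, against 10% and 13.6% of all genes, and a median log2 ratio of -0.07. The acetyltransferase genes CREBBP at 3.2 (3.07 to 3.34) and EP300 at 2.84 (2.68 to 3) were the higher ones. SAP30, a subunit of the SIN3A complex, was at 0.192 (0.142 to 0.253), from 385 to 57 reads, and the acetyltransferase gene KAT2B at 0.388 (0.226 to 0.64). SIN3A itself was at 0.955 (0.891 to 1.02), CTBP1 at 1.44 (1.39 to 1.49) and CTBP2 at 0.951 (0.903 to 1). No cofactor gene passed the rule with the siRNA, where 1.10% of all genes were called higher and 0.118% lower.

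Among 13 genes of signals known to act on KLF transcription, palbociclib-treated cells showed 4 past the rule as higher and 1 as lower, at a median log2 ratio of 0.46, where 10% and 13.6% of all genes were called higher and lower. MEF2D, a target of the ERK5 kinase pathway that induces KLF2 and KLF4, was at 4.03 (3.74 to 4.33), whereas MEF2C was at 0.369 (0.308 to 0.441). The TGF-beta signal transducers SMAD3 at 2.51 (2.38 to 2.66) and SMAD4 at 2.25 (2.07 to 2.45) and the serum response factor gene SRF at 2.15 (2.05 to 2.26) were the others past the rule. With siRNA none passed, where 1.10% of all genes were called higher and 0.118% lower, and MEF2D was at 1.3 (1.19 to 1.42). Of 8 ubiquitin ligase and deubiquitinase genes that act on KLF proteins none passed the rule with either agent. Of all genes, 10% were called higher and 13.6% lower with palbociclib, and 1.10% and 0.118% with siRNA. With palbociclib the 8 genes had a median log2 ratio of 0.14, against -0.07 for all genes. Their ratios ranged from SMURF2 at 0.935 (0.883 to 0.989) to VHL at 1.76 (1.63 to 1.9).

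Of 23 genes described as targets of KLF proteins, 17 were compared, and 5 were higher and 2 lower in the palbociclib library, with a median log2 ratio of 0.41, against 10% and 13.6% of all genes and their median of -0.07. CDKN1C, the gene of the CDK inhibitor p57, was furthest up at 7.5 (6.9 to 8.15), followed by EGR1 at 6.02 (5.77 to 6.29) and SMAD7, which restrains TGF-beta receptors, at 2.7 (2.21 to 3.3). Among the lower genes was the cyclin gene CCNB1, at 0.336 (0.318 to 0.355). ALPI, SPRR2A and TXNIP were listed at 0 in every library. None of the 17 passed the rule with the siRNA, where 1.10% of all genes were called higher and 0.118% lower. SMAD7 was lower there, at 0.515 (0.383 to 0.687), whereas EGR1 was at 1.61 (1.53 to 1.7) and CDKN1C at 0.992 (0.888 to 1.11).

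**Figure D5:**
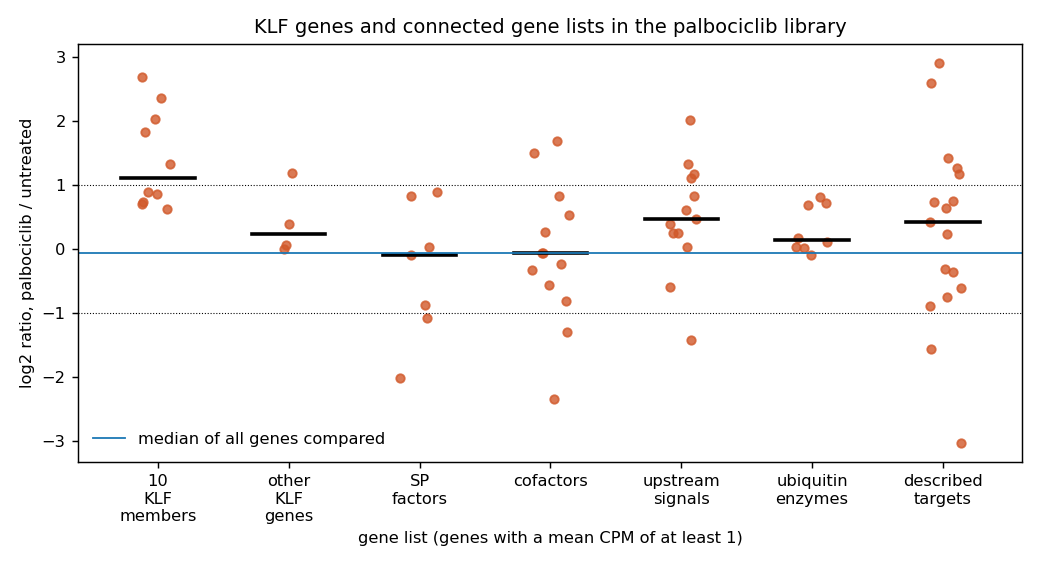
Points are log2 ratios of palbociclib to untreated for the compared genes of each list, black bars are list medians, the blue line is the median of all genes at -0.07 and dotted lines mark 1 and -1. The 10 KLF members have a median of 1.10 and lie above 0 throughout, while the SP factors have a median of -0.1.

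Genes outside the family with the nearest pair of log2 ratios, over 3 libraries and 10326 candidates with a mean of at least 5 CPM, were found for the 5 members past the rule. For KLF6 they were AMOTL2, at 6.42 with palbociclib and 1.1 with siRNA, CLK1 and KIAA1217, at distances of 0.16 to 0.163 on the log2 scale. For KLF5 they were GABARAPL1, ABHD4 and KDM6B, at 0.04 to 0.084, and GABARAPL1 was at 5.14 with palbociclib. KLF9 had AREG, ARHGAP31 and NFKB2 at 0.038 to 0.074, and KLF11 had TSC22D2, ZXDB and HIVEP2 at 0.025 to 0.08. KLF4 lay nearest to SMAD3, C22orf34 and HSPB8, at 0.004 to 0.015. KLF6 thus had no candidate as close as those of the other 4.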

How the data were processed

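Gene-level RNA sequencing data covered 3 HCT116 libraries, untreated, CDK4 siRNA and palbociclib, matched to table columns by library title. The deposited counts are whole, unnormalised read counts per gene, and the deposited FPKM values are those counts divided by gene length and library total by the authors (largest relative deviation 9e-12 over 16938 genes). HTSeq 0.6.1, DESeq and hg19 are named per the submitters' processing notes, whereas aligner, annotation and strand setting are not given there.

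From the counts, TMM factors (1.03, 1.07 and 0.901) were computed with edgeR 4.0.16 in R 4.3.3. Log2 ratios carry a prior count of 2, and ratios printed without a log carry none. Intervals are exact 95% intervals, Poisson for levels and Clopper-Pearson for ratios. PCR copies of a molecule were not removed by identifiers, so these intervals cover counting error only. With 1 library per group no p-value was computed and no difference has a replicate check. Code was tested on simulated data. The members and gene lists were chosen with earlier results of these data known. The genes named are the 10 members, in each list the furthest gene in either direction and up to 3 more past the rule, and the 3 genes nearest in pattern. SIN3A, CTBP1, CTBP2, SP1 and the remaining KLF genes were named outside that rule, and 1 listed gene is not reported here. Alternatives changed the scaling, prior count, low-count filter, fold threshold, unit and GC and length trend.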

Additional observations from a re-analysis of the deposited data

How the results depend on the processing

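Under 7 alternatives of scaling, prior count, unit and GC and length trend, no called member ratio changed sign. The ratios stayed within the original counting interval in 157 member comparisons and left it in 53. The palbociclib log2 ratio against untreated ranged from 2.48 to 2.8 for KLF6, 2.16 to 2.48 for KLF5, 1.72 to 2.13 for KLF9, 1.59 to 1.93 for KLF11 and 1.13 to 1.44 for KLF4. Against untreated with siRNA, KLF10 ranged from -0.03 to 0.06 and KLF16 from -0.1 to 0.22, so their direction is not settled. A 1.5-fold rule called 1 member higher with siRNA and all 10 higher with palbociclib, by its lower threshold. Under that rule 3.79% of all genes were called higher with siRNA and 20.3% with palbociclib against untreated. Calls of the listed genes outside the 10 members were not checked one by one under these alternatives. Counts over all genes moved more. With library totals, 668 genes were higher and 2632 lower for palbociclib against siRNA. With the deposited FPKM, 809 were higher with palbociclib against untreated, 645 higher against siRNA, and 6 lower with siRNA. A prior count of 5 left 9 lower with siRNA. Without a low-count filter, 436 were higher and 103 lower with siRNA, 2076 higher with palbociclib against untreated and 1721 against siRNA. At a mean of at least 5 CPM, 33 were higher and 1 lower with siRNA, and 1167 lower for palbociclib against siRNA. The 1.5-fold rule gave 481 higher and 115 lower with siRNA, 2578 and 3216 with palbociclib against untreated, and 2471 and 3269 against siRNA. Fewer or more genes entered under the filters; for the scalings and FPKM the cause was not tested. Library totals changed the share of higher genes among palbociclib calls against untreated from 42.4% to 26%, and upper quartile factors to 52.5%. Summing duplicate entries gave no value because each member has 1 entry. No paired analysis was possible because each group has 1 library. KLF9 and KLF11, with 82 and 169 untreated reads, are the members that depth limits most.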

Other observations

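Genes known as KLF2 targets in endothelial cells and lymphocytes were looked at beside KLF2 itself, which stood at 1.84 times the untreated level with siRNA and 1.62 times with palbociclib. NOS3, the endothelial nitric oxide synthase gene, stood at 0.97 (0.885 to 1.06) in siRNA-treated and 1.33 (1.21 to 1.45) in palbociclib-treated cells. THBD, the thrombomodulin gene, had 16, 23 and 32 untreated, siRNA and palbociclib reads, giving ratios of 1.53 (0.775 to 3.1) and 2.59 (1.38 to 5.05). S1PR1, which encodes a receptor for lymphocyte exit from tissue, had 4, 0 and 2 reads, too few for a ratio.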
